A study of Mus musculus with 40 samples.

Results

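Of the 7 genes described here, Entpd1, Nt5e, Ada, Adora2a, P2rx4 and P2rx7 handle or sense adenosine or ATP. The remaining gene, P2ry10, is grouped with them by name, although the ligand of its product is not a nucleotide. The 7 genes were chosen by gene symbol and not by a cutoff on measured values, but with earlier results of these data known. They are 7 of the 21950 genes in the deposited RNA-seq table, which holds 24 mouse libraries in 8 groups of 3. All 7 passed the filter on low values in both sets of libraries that were fitted.

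T cells that are stressed, dying or stimulated release ATP, which is read as a danger signal by P2X ion channels and by P2Y receptors. The surface enzyme CD39, encoded by Entpd1, cuts ATP and ADP down to AMP, and CD73, encoded by Nt5e, turns AMP into adenosine. Adenosine acts on the A2a receptor, encoded by Adora2a, which raises cyclic AMP in the cell and dampens T cell receptor signaling, and adenosine deaminase, encoded by Ada, removes adenosine by converting it to inosine. Regulatory T cells are known for carrying CD39 together with CD73.

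Conventional CD4+ T cells (Tconvs) and thymus-derived regulatory T cells (tTregs, called nTreg in the labels) came from spleens of Foxp3-GFP reporter mice on a C57BL/6 background, 2 to 4 months of age, and were taken at rest or after activation with anti-CD3 and anti-CD28. Induced regulatory T cells (iTregs) were made from naive CD4+ T cells of mice 6 weeks of age by 4 days of culture with plate-bound anti-CD3 (0.5 µg/ml), anti-CD28 (1 µg/ml), IL-2 and 2 ng/ml TGF-β. They were sorted on the Foxp3 reporter and rested for 1 day. Resting iTregs were compared with iTregs restimulated through CD3 and CD28 alone, with CM-4620, which blocks the ORAI calcium channels, or with cyclosporin A (CsA), which blocks calcineurin and with it NFAT; the label of the CsA libraries gives the cell type only as Treg. tTregs were gated on the Foxp3 reporter and not on where they arose, each inhibitor was used at 1 condition, and neither the doses, the hours of activation nor the number of mice behind a library were given in the sources used here. Nothing in the labels says that the 3 libraries of a group came from separate animals or cultures. The p-values therefore rest on the spread between these libraries, which may be technical. For each gene, 1 estimate of it was shared by all libraries of a fit, although the spread differed by group. Mean chi-square per degree of freedom between 2 libraries was 13.7 to 36.3 in resting and 12.7 to 29.65 in activated tTregs. It was 3.01 to 4.16 in resting Tconvs, 4.255 to 9.355 in activated Tconvs and 4.96 to 16.4 in resting iTregs. The SEs and p-values of comparisons with tTregs may therefore be too small.

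The values are normalized counts, that is reads of a gene divided by 1 scaling factor per library. Reads assigned to genes ranged from 5256800 to 15685234 per library with the lowest medians in the 2 tTreg groups. Foxp3 averaged 10.4 normalized counts in resting Tconvs, 7537 in resting tTregs and 1280.0 in resting iTregs, and Ikzf2, a gene of thymic Tregs, averaged 9403 in resting tTregs and 167 in resting iTregs, so these 2 markers follow the labels. Of 5 Treg markers, 5 were higher in resting tTregs and 4 in resting iTregs than in resting Tconvs. In resting iTregs 1 was higher and 3 lower than in resting tTregs. On activation of Tconvs 4 rose and 1 fell, and their sum went from 463 to 490 to a range of 5212 to 5434. Of other cell types, the B cell markers Ms4a1 and Pax5 were at or under 3 reads in every library, although Cd79b averaged 124 in resting tTregs, and the summed levels of 7 myeloid and 4 NK cell markers were at most 120.3 and 308 normalized counts. Both sums moved with the groups: from resting to activated Tconvs the myeloid sum went from a range of 54.5 to 68.5 to one of 109 to 120.3 and the NK sum from 33.4 to 40.1 to 281 to 308, and in tTregs the myeloid sum went from 16.9 to 26.2 to 48.5 to 56.3 while the NK sum was at most 5.69. The sum of 2 CD8 T cell markers was 223 to 236 in resting Tconvs, 110 to 123 in activated Tconvs, 157 to 178 in resting tTregs and 99.1 to 122 in resting iTregs. That of 5 dendritic cell markers was 79.0 to 107 in resting Tconvs, 86.6 to 110 in resting tTregs and 13.7 to 19.7 in resting iTregs. The part of these other cell types in the members' values was not tested. Because these are bulk libraries, fewer cells that make a transcript and less of it per cell cannot be told apart.

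P2rx7 and P2rx4 are neighbours on chromosome 5 that moved in opposite directions when Tconvs were activated, and P2ry10 and its relative P2ry10b are neighbours on the X chromosome that differed in opposite directions between resting tTregs and resting Tconvs. The stretch from 250 to 31 bases before the first listed start of each gene (RefSeq, GRCm38.p6, plus strand) is therefore printed. Capitals mark 2 motifs on either strand: GGAAA, the core that NFAT binds, and TGANTCA. The latter is looser than the usual AP-1 site, TGACTCA or TGAGTCA, because it allows any base in the middle. P2rx7 is at chr5:122643677-122643896, P2rx4 at chr5:122707294-122707513, P2ry10 at chrX:107088242-107088461 and P2ry10b at chrX:107148677-107148896.
P2rx7: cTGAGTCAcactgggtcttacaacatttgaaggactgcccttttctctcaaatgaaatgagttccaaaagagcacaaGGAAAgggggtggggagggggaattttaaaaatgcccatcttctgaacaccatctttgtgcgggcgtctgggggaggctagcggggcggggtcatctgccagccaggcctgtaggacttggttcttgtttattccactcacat
P2rx4: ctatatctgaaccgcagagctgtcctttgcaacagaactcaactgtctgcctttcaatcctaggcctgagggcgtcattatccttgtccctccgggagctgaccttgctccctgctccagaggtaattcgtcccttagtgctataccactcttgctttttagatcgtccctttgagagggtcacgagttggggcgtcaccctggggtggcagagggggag
P2ry10: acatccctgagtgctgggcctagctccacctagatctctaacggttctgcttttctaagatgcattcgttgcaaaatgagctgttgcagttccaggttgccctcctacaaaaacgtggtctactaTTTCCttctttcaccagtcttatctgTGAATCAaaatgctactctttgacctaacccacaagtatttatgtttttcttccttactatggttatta
P2ry10b: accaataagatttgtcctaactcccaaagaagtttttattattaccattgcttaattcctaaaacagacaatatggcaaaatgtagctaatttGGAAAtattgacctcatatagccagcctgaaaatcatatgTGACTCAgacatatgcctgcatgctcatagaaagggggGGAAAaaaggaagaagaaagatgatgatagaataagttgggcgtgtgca
The windows of P2rx7 and P2ry10 each hold 1 GGAAA match and 1 TGANTCA match, that of P2ry10b holds 2 and 1, and that of P2rx4 holds neither. The TGANTCA match of P2ry10 is TGAATCA, which is not the usual AP-1 site. RefSeq lists further starts, whose windows are not printed: that of P2rx7 holds neither motif, that of P2ry10 holds 1 GGAAA and those of P2ry10b hold 1 and 3 GGAAA, and none of these holds TGANTCA. No match of the cyclic AMP response element TGACGTCA is in any window of these 4 genes. Among 32851 windows of the same 220 bases in RefSeq, 51.3% hold GGAAA, 6.12% hold TGANTCA and 1.14% hold TGACGTCA, so the GGAAA matches are common ones. The windows of the members Nt5e, Entpd1 and Ada, which are not printed, hold no TGANTCA, and no window was available for Adora2a. The printed genes were picked for how their levels differed, and whether TGANTCA is more frequent in them was not tested. A match is only a stretch of letters, and nothing was measured here on the binding of a factor.

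In the annotation (GENCODE, GRCm38), Nt5e lies at chr9:88327197-88372092, Entpd1 at chr19:40612366-40741602, Ada at chr2:163726584-163750239 on the minus strand, Adora2a at chr10:75316877-75334784, P2rx7 at chr5:122643911-122691432, P2rx4 at chr5:122707544-122729738 and P2ry10 at chrX:107088492-107104974. The end of P2rx7 and the start of P2rx4 are 16.1 kb apart, and P2ry10 and P2ry10b are 44 kb apart. The library method did not mark strand, so overlap with other genes was checked. Apart from P2rx7, which shares 1.99% of its exon bases with a microRNA gene inside it, Mir8115, no member shares exon sequence by position, and 1.93% of the P2rx4 transcript matches a transcript of another gene over runs of at least 50 bases. P2ry10 and P2ry10b have 84.4% of aligned coding bases in common, but no run of 50 identical bases, so reads of these 2 paralogs could mostly be told apart.

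**Figure D1:**
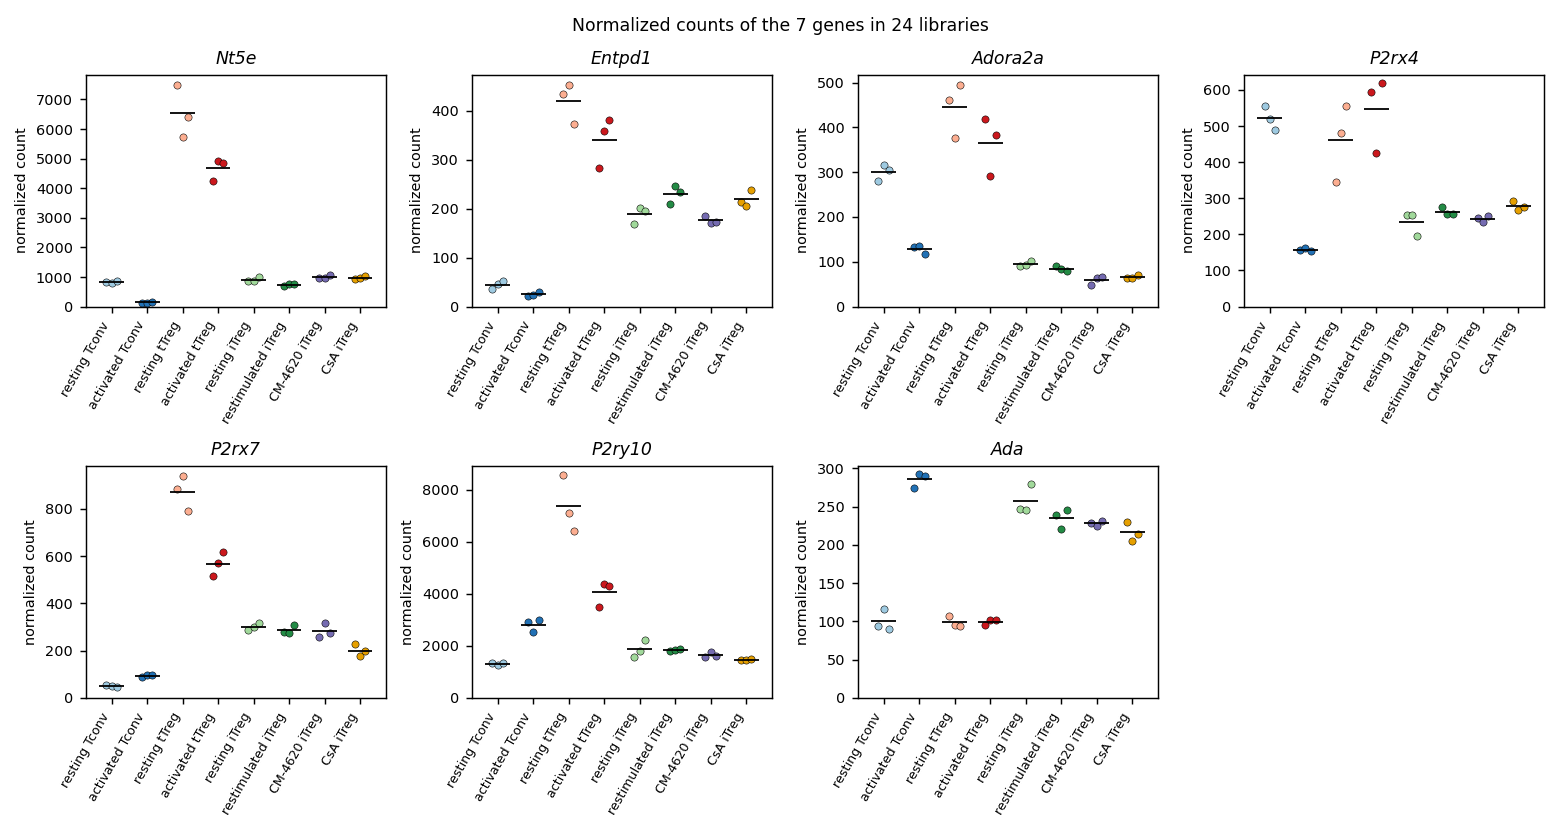
Normalized counts (linear axis from 0) of each gene in the 8 groups, with 1 point per library and a line at the mean of 3. Nt5e, Entpd1, P2rx7 and P2ry10 were highest in resting tTregs, Ada had its highest mean in activated Tconvs, and Adora2a was lowest in the 4 iTreg groups.

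Entpd1, whose product takes the first step from ATP towards adenosine, was low in Tconvs, highest in tTregs and in between in iTregs. Its normalized counts were 34.97, 46.0 and 51.8 in resting Tconvs and 435, 453 and 372 in resting tTregs. Resting iTregs had 169, 202 and 196. The 3 groups do not overlap: every tTreg library was above every iTreg library, and these above every Tconv library. Activated Tconvs had 22.4, 23.3 and 29.0, lower than at rest without overlap, and activated tTregs had 283, 359 and 381, a range that overlaps the resting one. Restimulated iTregs had 209, 247 and 233, with CM-4620 186, 171 and 172 and with CsA 214, 206 and 237.

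Nt5e, whose product makes the adenosine, separated tTregs from every other group. Resting tTregs had 7474, 5737 and 6402 normalized counts and activated tTregs 4247, 4936 and 4864. Resting Tconvs had 842, 794 and 855, and activated Tconvs only 131, 135 and 159, so Tconvs sat well below tTregs at rest and still further below after activation. Resting iTregs, at 880.1, 853 and 988, overlapped resting Tconvs. Restimulated iTregs had 689.9, 774 and 765, below every resting iTreg library, and the libraries with CM-4620 (954, 951 and 1083) and CsA (942, 963 and 1036) were all above every restimulated one.

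Ada, whose product removes adenosine, was high in activated Tconvs and iTregs and low elsewhere. It had low values in resting Tconvs (93.6, 116 and 90.4), resting tTregs (107, 94.7 and 94.5) and activated tTregs (95.6, 101 and 102), and these 3 groups overlap. High values were those of activated Tconvs (274, 293 and 290.1) and resting iTregs (247, 245 and 279). The remaining iTreg groups had 239, 221 and 246 after restimulation, 229, 225 and 231 with CM-4620 and 230.0, 205 and 214 with CsA. tTregs, with the most Nt5e and Entpd1, thus had little Ada. Activated Tconvs had the least of both enzymes and the highest mean of Ada, though their Ada values overlap those of resting iTregs. Other groups did not show this contrast: resting Tconvs had little Entpd1 and little Ada, and iTregs had intermediate Entpd1 and high Ada. Adenosine was not measured, nor was whether the Ada product acts inside or outside the cell.

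Adora2a, the A2a receptor, was not at its lowest in Tconvs but in iTregs. Resting tTregs had 462, 376 and 495 normalized counts, activated tTregs 419, 290.4 and 383, resting Tconvs 279.7, 316 and 305 and activated Tconvs 133, 135 and 117. Resting iTregs had 89.6, 91.8 and 101 and restimulated iTregs 91.7, 82.9 and 79.0, below all 12 Tconv and tTreg libraries. With CM-4620 the values were 47.9, 64.3 and 65.8 and with CsA 63.4, 64.7 and 70.4. Every library of both inhibitors was below every restimulated library, but in the test given further below the difference passed with CM-4620 only.

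P2rx4, an ATP-gated channel of the plasma membrane and lysosome, did not separate resting tTregs from resting Tconvs. Resting Tconvs had 555, 519 and 489.8 normalized counts, resting tTregs 345, 481 and 556 and activated tTregs 595, 425 and 619, and these 3 groups overlap. Activated Tconvs had 157, 162 and 154, lower than in any other group. The iTreg groups lay in between, with 255, 253 and 194 at rest, 275, 256 and 257 restimulated, 246, 235 and 250.1 with CM-4620 and 291, 268 and 277 with CsA.

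P2rx7, the channel that opens at high ATP and can lead to T cell death, had the widest difference at rest of the 7 genes. Resting Tconvs had 55.5, 49.7 and 48.3 normalized counts and resting tTregs 884, 938 and 792. Activation raised it in Tconvs to 87.1, 96.6 and 95.5 and lowered it in tTregs to 517, 572 and 618, in both cases without overlap. Resting iTregs had 289, 299 and 318, restimulated iTregs 280.0, 277 and 309.7 and CM-4620 iTregs 259, 317 and 275, which overlap each other. CsA iTregs, at 228, 175 and 198, were below all 9 other iTreg libraries.

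P2ry10 is grouped with the P2Y receptors by name, although the ligand of its product is the lipid lysophosphatidylserine and not a nucleotide. Resting Tconvs had 1332, 1259 and 1338 normalized counts, activated Tconvs 2915, 2540.0 and 2996, resting tTregs 8549, 7113 and 6415 and activated tTregs 3473, 4392 and 4296. The 4 groups are apart from each other, and activation moved Tconvs and tTregs towards one another. Resting iTregs had 1572, 1802 and 2221, a wide range within which the restimulated libraries (1806, 1837 and 1890.0) fell. CM-4620 iTregs had 1573, 1749 and 1617 and CsA iTregs 1456, 1446 and 1498.

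Levels of different genes can be compared only per length. Per kilobase of the longest coding transcript, resting tTregs had 2548 ± 377 normalized counts (SD, n = 3) of P2ry10, 1636 ± 219 of Nt5e, 176.5 ± 15.0 of P2rx7, 171 ± 23.7 of Adora2a, 170.5 ± 39.6 of P2rx4, 99.6 ± 10.0 of Entpd1 and 58.5 ± 4.25 of Ada. P2ry10 led in resting Tconvs too, at 453.5 ± 15.3, followed by Nt5e at 207.9 ± 7.98 and P2rx4 at 192.9 ± 12.2, while P2rx7 (10.4 ± 0.78) and Entpd1 (10.5 ± 2.02) were lowest. P2rx7 thus moved from the lowest pair in resting Tconvs to the level of P2rx4 in resting tTregs.

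The first comparison asks how tTregs and Tconvs differ at rest. Of the 7 genes, 5 were higher in resting tTregs and none lower, at an adjusted p under 0.05 and a log2 fold change beyond 0.5, which 38.6% of the 11495 genes tested passed, 20.5% being higher and 18.2% lower. P2rx7 differed most (log2 fold change 4.06, SE 0.11, adjusted p = 3.47e-13), with 1.11% of genes tested showing a higher log2 fold change. Entpd1 (3.23, SE 0.17, adjusted p = 7.24e-10), Nt5e (2.97, SE 0.11, adjusted p = 1.05e-11) and P2ry10 (2.48, SE 0.13, adjusted p = 9.01e-10) followed. These 4 genes are 16.7, 9.40, 7.82 and 5.58 times as high on that scale. Adora2a was slightly higher (0.56, SE 0.14, adjusted p = 0.0041), a call that was lost without the third resting tTreg library, where the value was 0.47. P2rx4 (-0.20, SE 0.17, adjusted p = 0.348; 95% interval -0.58 to 0.17) and Ada (-0.01, SE 0.12, adjusted p = 0.944; 95% interval -0.27 to 0.24) did not pass. The median of the 7 was 2.48 on the log2 scale, against -0.015 over all genes tested. The comparisons that follow reuse some of these libraries and are not independent of each other.

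After activation all 7 genes differed between tTregs and Tconvs, 6 being higher and Ada lower, where 48.2% of genes passed, 25.6% being higher and 22.6% lower. Nt5e differed the most of the 7 (log2 fold change 5.04, SE 0.11, adjusted p = 8.15e-14, 32.9-fold), the fourth of 11495 genes by p-value. Entpd1 was 13.2-fold higher (3.72, SE 0.17, adjusted p = 2.09e-10) and P2rx7 6.05-fold (2.60, SE 0.11, adjusted p = 5.92e-11). P2rx4 (1.77, SE 0.17, adjusted p = 6.88e-07) and Adora2a (1.48, SE 0.14, adjusted p = 5.01e-07) were also higher. P2ry10 only just passed (0.52, SE 0.13, adjusted p = 0.0035), and it missed the fold threshold with edgeR or DESeq2 on recovered reads (0.49 with each), with newly computed scaling factors (0.48) and without the second activated Tconv (0.45), the second activated tTreg (0.46) or the third activated tTreg library (0.47). Ada was 2.85-fold lower in activated tTregs (-1.51, SE 0.12, adjusted p = 7.56e-08).

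The next comparison asks what activation does in each cell type. In Tconvs all 7 genes changed, 3 up and 4 down, where 50.2% of genes tested passed, 24.5% up and 25.7% down. The adenosine-making enzymes and the A2a receptor fell together: Nt5e (log2 fold change -2.55, SE 0.11, adjusted p = 4.93e-11), Adora2a (-1.22, SE 0.14, adjusted p = 2.81e-06) and Entpd1 (-0.79, SE 0.17, adjusted p = 0.000867), and P2rx4 fell as well (-1.72, SE 0.17, adjusted p = 6.84e-07). Nt5e fell 5.85-fold, and 98.1% of genes tested had a higher log2 fold change. Ada rose 2.85-fold (1.51, SE 0.12, adjusted p = 4.9e-08), P2ry10 2.15-fold (1.10, SE 0.13, adjusted p = 4.27e-06) and P2rx7 1.80-fold (0.85, SE 0.11, adjusted p = 6.03e-06).

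In tTregs 2 of the 7 genes changed with activation, both down, where 21.9% of genes tested passed, 11.9% going up and 10% down: P2ry10 (log2 fold change -0.86, SE 0.13, adjusted p = 0.00024) and P2rx7 (-0.61, SE 0.11, adjusted p = 0.00057). Nt5e had an adjusted p under the threshold but a smaller fold (-0.48, SE 0.11, adjusted p = 0.0035). Ada did not pass (0.01, SE 0.12, adjusted p = 0.948; 95% interval -0.24 to 0.27). Entpd1 (-0.31, SE 0.17, adjusted p = 0.176), Adora2a (-0.29, SE 0.14, adjusted p = 0.12) and P2rx4 (0.25, SE 0.17, adjusted p = 0.276) did not pass either. Markers of other states moved beside these values. Of the activation markers Cd69, Irf4, Myc, Tnfrsf4 and Tnfrsf9, 5 of 5 rose in activated Tconvs with a median log2 fold change of 4.20, and 1 of 5 rose in activated tTregs with a median of 0.21. Their summed level ranged from 861 to 953 in resting and from 14199 to 15574 in activated Tconvs, and from 15698 to 20042 in resting and from 16911 to 21238 in activated tTregs. The cycling markers Mki67, Top2a, Ccna2 and Cdk1 all rose in both cell types, with a median log2 fold change of 3.31 in Tconvs and 2.15 in tTregs, and their sum went from a range of 252 to 317 in resting to 921 to 997 in activated tTregs. The part of these markers in the members' values was not tested.

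The response itself was then compared between the cell types, as the log2 fold change on activation in tTregs minus that in Tconvs. It differed for 6 of the 7 genes, where 34.7% of genes passed, 17.7% with a higher and 17% with a lower response in tTregs. The difference was positive for Nt5e (log2 fold change 2.07, SE 0.15, adjusted p = 8.8e-08), P2rx4 (1.97, SE 0.25, adjusted p = 1.95e-05) and Adora2a (0.92, SE 0.20, adjusted p = 0.00203), which fell in Tconvs and did not pass in tTregs. It was negative for P2ry10 (-1.96, SE 0.19, adjusted p = 1.48e-06) and P2rx7 (-1.47, SE 0.15, adjusted p = 2.75e-06), which rose in Tconvs and fell in tTregs, and for Ada (-1.50, SE 0.17, adjusted p = 7.41e-06), which rose in Tconvs alone. For Entpd1 the difference did not pass (0.49, SE 0.24, adjusted p = 0.124; 95% interval -0.03 to 1.00), though without the first resting Tconv library it was 0.64 and passed.

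**Figure D2:**
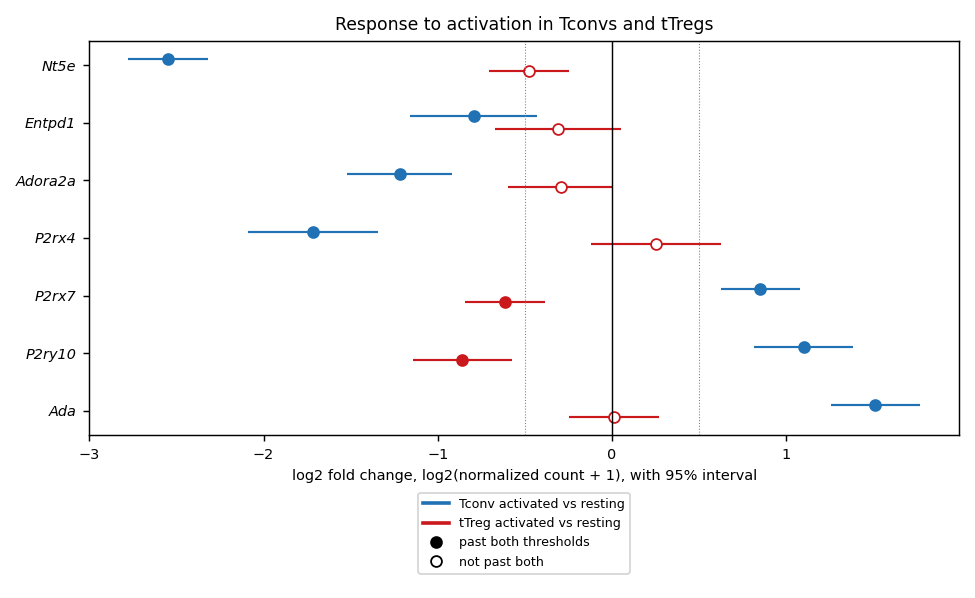
Log2 fold change on activation (x axis) of each gene in Tconvs (blue) and tTregs (red), with 95% intervals, filled points past both thresholds and dotted lines at 0.5 in either direction. P2rx7 and P2ry10 lie to the right of 0 in Tconvs and to the left in tTregs, and the 4 genes that fell in Tconvs are open points in tTregs.

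Resting iTregs were set against the cells they resemble in origin or in function. Against resting Tconvs, 5 of the 7 genes differed, where 63.6% of genes passed (32.8% higher, 30.8% lower), so a call there is common. P2rx7 (log2 fold change 2.54, SE 0.11, adjusted p = 1.77e-11), Entpd1 (2.08, SE 0.17, adjusted p = 3.17e-08) and Ada (1.36, SE 0.12, adjusted p = 7.89e-08) were higher, and Adora2a (-1.66, SE 0.14, adjusted p = 5.03e-08) and P2rx4 (-1.16, SE 0.17, adjusted p = 2.35e-05) lower. Nt5e did not pass (0.12, SE 0.11, adjusted p = 0.302; 95% interval -0.10 to 0.35). P2ry10 lay at the fold threshold (0.50, SE 0.13, adjusted p = 0.00358) and passed it with newly computed scaling factors (0.51), edgeR (0.51) or DESeq2 (0.53).

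Against resting tTregs, all 7 genes differed, 6 lower and Ada higher, where 63.4% of genes passed, 32.3% being higher and 31.1% lower. Nt5e was 7.17-fold lower (log2 fold change -2.84, SE 0.11, adjusted p = 8.12e-12), Adora2a 4.66-fold (-2.22, SE 0.14, adjusted p = 2.3e-09) and P2ry10 3.96-fold (-1.98, SE 0.13, adjusted p = 4.02e-09). P2rx7 (-1.52, SE 0.11, adjusted p = 6.29e-09), Entpd1 (-1.15, SE 0.17, adjusted p = 2.15e-05) and P2rx4 (-0.96, SE 0.17, adjusted p = 0.000158) were lower by less. Ada was 2.59-fold higher (1.37, SE 0.12, adjusted p = 8.02e-08).

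For genes that were higher in tTregs than in Tconvs at rest, the place of resting iTregs between the 2 can be written as a percentage of the distance on the log2 scale, from 0 for resting Tconvs to 100 for resting tTregs. It was 64.4 ± 4.26% (SD, n = 3 iTreg libraries) for Entpd1, 62.5 ± 1.73% for P2rx7, 20.0 ± 10.1% for P2ry10 and 4.21 ± 3.75% for Nt5e, and Adora2a lay outside the interval, below Tconvs. The tTreg-high enzymes of the pathway were therefore divided, with Entpd1 well on the way to the tTreg level and Nt5e at the Tconv level. These percentages share the Tconv and tTreg libraries and are a description with no test. Over pseudocounts of 0.1 and 5 and with each library left out they stayed between 62.6 and 66.9% for Entpd1 and between 2.09 and 5.64% for Nt5e.

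Against activated Tconvs, 5 of the 7 genes differed, where 41.6% of genes passed, 22.9% being higher and 18.7% lower. Entpd1 (log2 fold change 2.88, SE 0.17, adjusted p = 2.9e-09), Nt5e (2.67, SE 0.11, adjusted p = 4.88e-11), P2rx7 (1.69, SE 0.11, adjusted p = 6.13e-09) and P2rx4 (0.56, SE 0.17, adjusted p = 0.0138) were higher in resting iTregs and P2ry10 was lower (-0.61, SE 0.13, adjusted p = 0.00134). Ada did not pass (-0.15, SE 0.12, adjusted p = 0.296; 95% interval -0.41 to 0.10), nor did Adora2a (-0.45, SE 0.14, adjusted p = 0.0148). Without the first resting iTreg library both P2rx4 (0.49) and P2ry10 (-0.49) missed the fold threshold, which leaves 3 of 7, and P2rx4 also did so without the second (0.49). iTregs differ from the other cells in growth: the summed level of the cycling markers Mki67, Top2a, Ccna2 and Cdk1 ranged from 22147 to 22694 in resting iTregs, from 252 to 317 in resting and 921 to 997 in activated tTregs, from 98.5 to 112 in resting Tconvs and from 1276 to 1295 in activated Tconvs. Its part in the iTreg comparisons was not tested, and culture, donor age and cell type cannot be told apart.

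**Figure D3:**
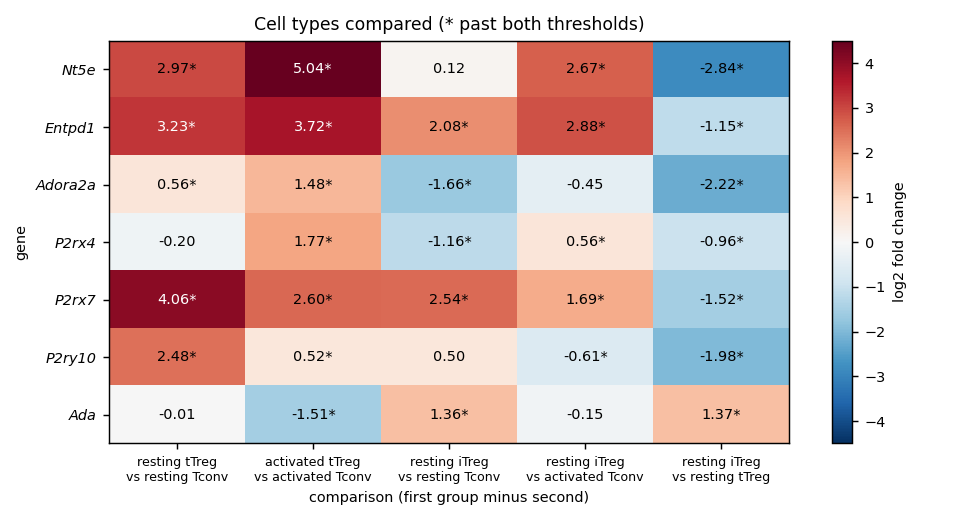
Log2 fold change of each gene (rows) in 5 comparisons of cell types (columns, first group minus second), colored red where higher and blue where lower, with an asterisk past both thresholds. Nt5e has the largest value, 5.04, for activated tTregs against activated Tconvs, and Ada is the only gene higher in resting iTregs than in resting tTregs.

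The order of the 8 groups was read from a fit of all 24 libraries. For Nt5e it runs from resting and activated tTregs, which are 0.48 apart, through a plateau of CM-4620 iTregs, CsA iTregs, resting iTregs, resting Tconvs and restimulated iTregs, in which no neighbours differed past the thresholds, to activated Tconvs. For Entpd1 the steps that passed lie between activated tTregs and restimulated iTregs, between CM-4620 iTregs and resting Tconvs, and between resting and activated Tconvs. For Adora2a a single step passed, between resting and activated Tconvs, and for Ada a single step, between CsA iTregs and resting Tconvs. Groups further apart in the Adora2a order also differed. Examples are resting tTregs against resting Tconvs (log2 fold change 0.56, adjusted p = 0.00218) and CM-4620 iTregs against activated Tconvs (-1.11, adjusted p = 8.1e-07) or resting iTregs (-0.67, adjusted p = 0.0038). P2rx4 had steps between resting tTregs and CsA iTregs and between resting iTregs and activated Tconvs, and P2ry10 had steps between resting tTregs, activated tTregs, activated Tconvs and resting iTregs. P2rx7 had 4 steps that passed: from resting to activated tTregs, from there to resting iTregs, from CsA iTregs to activated Tconvs, and from there to resting Tconvs. No neighbours among the iTreg groups differed past the thresholds, but the first and last of them, resting and CsA iTregs, did (log2 fold change -0.59, adjusted p = 0.000705), as did restimulated and CsA iTregs (-0.53, adjusted p = 0.00839).

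The study restimulated iTregs with or without blockers of the calcium and NFAT pathway. Restimulation alone changed none of the 7 genes past both thresholds, where 12.8% of 11105 genes did, 6.7% rising and 6.13% falling. By limma, 2 of the 7 had an unadjusted p under 0.05, and edgeR and DESeq2 also called 0. Nt5e was lower by less than the fold threshold (log2 fold change -0.29, SE 0.08, adjusted p = 0.0115) and Entpd1 was higher by less than it (0.28, SE 0.10, adjusted p = 0.0478). The remaining 5 had adjusted p-values above 0.05, with P2ry10 at -0.00 (95% interval -0.20 to 0.20) and Ada at -0.13 (-0.31 to 0.06). Activation markers did move, 3 of 5 rising, as did Treg markers, of which 2 of 5 fell.

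Against restimulated iTregs, 1 gene passed with CM-4620, where 3.3% of genes did (1.5% higher, 1.79% lower), and 1 with CsA, where 2.92% did (1.57% higher, 1.35% lower). With CM-4620 it was Adora2a (log2 fold change -0.51, SE 0.14, adjusted p = 0.04), and with CsA it was P2rx7 (-0.53, SE 0.11, adjusted p = 0.00623). Both lie close to the fold threshold. Adora2a was not called with DESeq2 (-0.51, adjusted p = 0.112), a pseudocount of 5 (-0.49) or without any filter (-0.51, adjusted p = 0.0757), nor without 5 of the 6 libraries compared in turn, being -0.37 without the first CM-4620 library, and P2rx7 was not called without the third restimulated (-0.48) or the second CsA library (-0.44). Nt5e was higher with both inhibitors, with a smaller fold than the threshold, by 0.42 with CM-4620 (SE 0.08, adjusted p = 0.0032) and by 0.40 with CsA (SE 0.08, adjusted p = 0.0051). The comparisons of restimulation and of both inhibitors share the restimulated libraries. The values of Nt5e with either inhibitor did not pass against resting iTregs (0.13, SE 0.08, adjusted p = 0.256 and 0.11, SE 0.08, adjusted p = 0.313). Entpd1 was lower with CM-4620 by an amount under the fold threshold (-0.38, SE 0.10, adjusted p = 0.0319) and did not pass with CsA (-0.07, SE 0.10, adjusted p = 0.757). Adora2a did not pass with CsA either (-0.35, SE 0.14, adjusted p = 0.16). P2ry10 was lower with CsA by an amount under the fold threshold (-0.33, SE 0.09, adjusted p = 0.0401), also against resting iTregs (-0.33, SE 0.09, adjusted p = 0.0173). With CM-4620 P2ry10 did not pass (-0.16, SE 0.09, adjusted p = 0.349).

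CM-4620 and CsA were compared directly for the 7 genes, with p-values adjusted over all genes tested. P2rx7 was higher with CM-4620 than with CsA (log2 fold change 0.50, SE 0.11, adjusted p = 0.0426), where 0.36% of genes passed, 0.0991% being higher and 0.261% lower with CM-4620. That value lies on the fold threshold, and the call was lost with edgeR (0.50), DESeq2 (0.49) and 5 of the 6 libraries left out in turn. The other 6 did not pass, with 95% intervals of the difference of -0.14 to 0.19 for Nt5e, -0.53 to -0.10 for Entpd1 (adjusted p = 0.242), -0.47 to 0.14 for Adora2a, -0.41 to 0.03 for P2rx4, -0.03 to 0.36 for P2ry10 and -0.11 to 0.26 for Ada. Against resting iTregs, which are shared by both comparisons, Adora2a was lower with CM-4620 (-0.67, SE 0.14, adjusted p = 0.00482), where 7.1% of genes passed (3.97% higher, 3.13% lower). With CsA, where 9.43% passed (5.19% higher, 4.24% lower), Adora2a (-0.50, SE 0.14, adjusted p = 0.0197) and P2rx7 (-0.59, SE 0.11, adjusted p = 0.00102) were lower. The Adora2a value with CsA missed the fold threshold with edgeR or DESeq2 (-0.50) and without the third resting iTreg library (-0.45), the first CsA library (-0.47) or the second (-0.49).

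**Figure D4:**
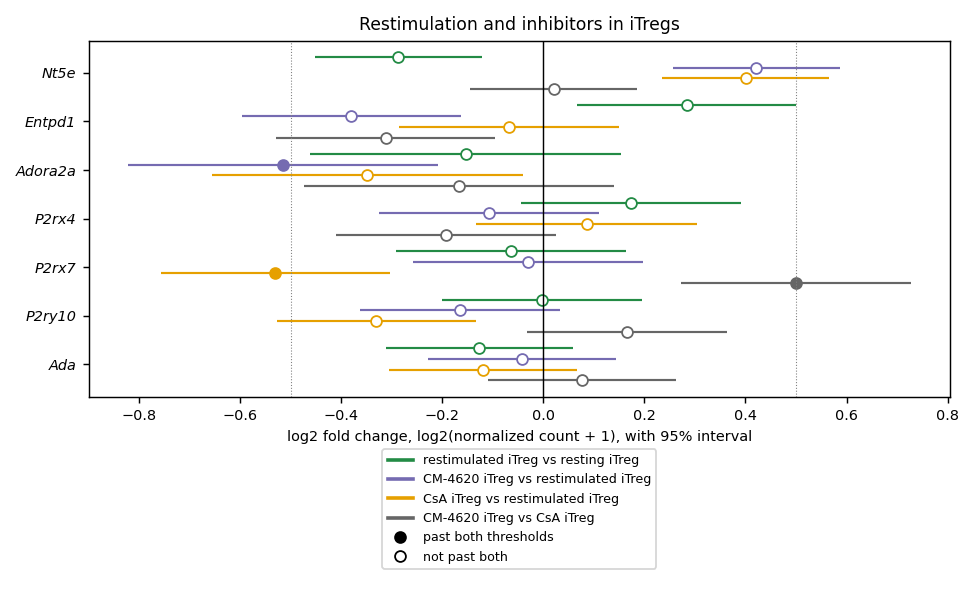
Log2 fold change (x axis) of each gene for restimulation against rest (green), CM-4620 (purple) and CsA (yellow) against restimulation alone, and CM-4620 against CsA (grey), with 95% intervals, filled points past both thresholds and dotted lines at 0.5 in either direction. For Nt5e the green point lies at -0.29 and the points of both inhibitors at 0.42 and 0.40; the 3 filled points are Adora2a with CM-4620 and P2rx7 with CsA and between the inhibitors.

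The rest of the adenosine pathway was described from gene lists. Of the other 3 adenosine receptors, Adora1 was at or near 0, and Adora2b, the low-affinity A2b receptor, and Adora3, the A3 receptor, were found mainly in iTregs. Adora2b had 0, 0 and 2.63 normalized counts in resting Tconvs, 1.81, 2.60 and 5.69 in resting tTregs and 16.2, 22.7 and 25.4 in activated tTregs, against 84.3, 86.8 and 75.1 in resting iTregs. It rose further on restimulation, to 158, 168 and 177 (log2 fold change 1.02, SE 0.10, adjusted p = 3.49e-06), and had 161, 149.6 and 154 with CM-4620 and 184, 165 and 162 with CsA. Adora3 had 33.7, 41.4 and 44.8 in resting iTregs, and at most 2.60 in any Tconv or tTreg library. iTregs, which had the least Adora2a, were therefore the cells with most Adora2b and Adora3.

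Of 15 other genes for ectonucleotidases and related surface enzymes, 10 were tested among Tconvs, tTregs and resting iTregs. In resting tTregs against resting Tconvs 4 were higher and 5 lower, where 20.5% of all genes were higher and 18.2% lower, with a median log2 fold change of -0.37 against -0.015 over all genes, so the list as a group did not follow Entpd1 and Nt5e. Cd38, which consumes NAD outside the cell, was higher (log2 fold change 2.67, SE 0.30, adjusted p = 3.04e-06) and Acpp, a phosphatase that can also make adenosine from AMP, lower (-3.50, SE 0.28, adjusted p = 7.13e-08). On activation of Tconvs 3 rose and 5 fell, where 50.2% of all genes were called, among them Acpp (-2.59, SE 0.28, adjusted p = 1.24e-06) and Entpd5 (-1.71, SE 0.08, adjusted p = 2.44e-10) downwards and Enpp1, which splits ATP (1.42, SE 0.16, adjusted p = 2.32e-06), upwards. In tTregs 1 of 10 changed, where 21.9% of all genes did, Art2b (-1.19, SE 0.19, adjusted p = 0.000299), an enzyme that can open the P2X7 channel by ADP-ribosylation. Art2b was also higher with CM-4620 than in restimulated iTregs (0.88, SE 0.20, adjusted p = 0.0128).

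None of the 5 other P2X receptors passed the filter in any fit, so P2rx4 and P2rx7 were the P2X genes with reads to compare. Among 10 other receptors of the P2Y family or near P2ry10 in sequence, 5 were tested. P2ry10b, also a receptor for lysophosphatidylserine, had 223, 284 and 209.8 in resting Tconvs and 91.6, 72.7 and 82.0 in resting tTregs, lower by contrast with P2ry10 (log2 fold change -1.52, SE 0.22, adjusted p = 3.19e-05). On activation of Tconvs it rose (1.10, SE 0.22, adjusted p = 0.000417) as P2ry10 did. Gpr34, another lysophosphatidylserine receptor, was higher in resting tTregs, at 770.1, 528 and 568, than in resting Tconvs, at 111, 68.5 and 89.5 (2.79, SE 0.24, adjusted p = 2.21e-07), fell when tTregs were activated (-1.50, SE 0.24, adjusted p = 0.000356), fell when iTregs were restimulated (-0.86, SE 0.12, adjusted p = 7.56e-05) and was higher with CM-4620 (0.90, SE 0.12, adjusted p = 0.000227). P2ry1, a receptor for ADP, was higher in resting iTregs than in resting Tconvs (2.09, SE 0.35, adjusted p = 7.5e-05) and lower in resting tTregs (-3.40, SE 0.35, adjusted p = 1.37e-06).

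**Figure D5:**
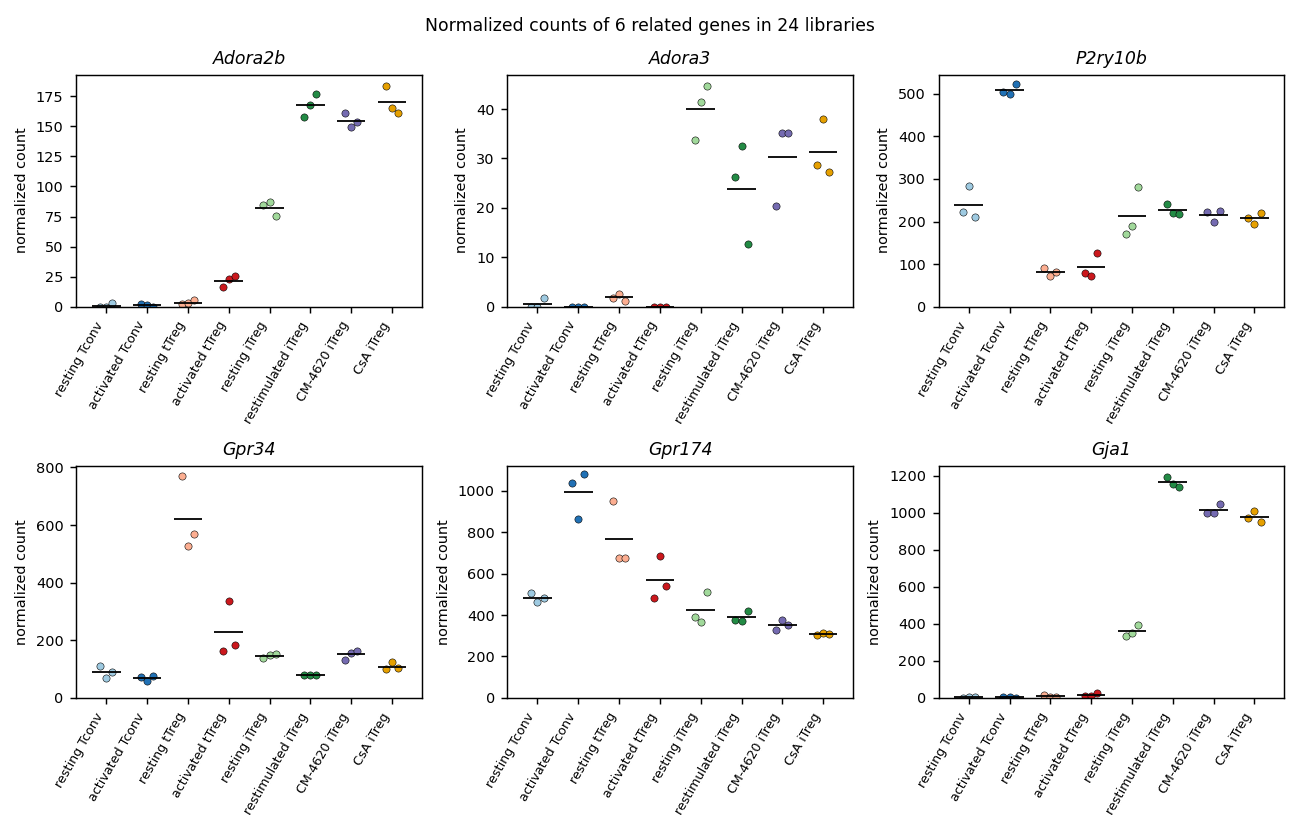
Normalized counts (linear axis from 0) of 6 related genes in the 8 groups, with 1 point per library and a line at the mean of 3. Adora2b, Adora3 and Gja1 are near 0 in Tconvs and present in iTregs, P2ry10b is lowest in tTregs, and Gpr34 is highest in resting tTregs.

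All 18 genes of adenosine uptake and metabolism were tested. On activation of Tconvs 6 rose and 5 fell, where 24.5% of all genes rose and 25.7% fell, with the concentrative nucleoside transporter gene Slc28a2 (log2 fold change -1.96, SE 0.13, adjusted p = 6.05e-09) and the adenosine kinase gene Adk (-0.84, SE 0.11, adjusted p = 9.44e-06) down. In tTregs 2 rose and 2 fell, where 11.9% of all genes rose and 10% fell, Adk again down (-0.95, SE 0.11, adjusted p = 2.33e-05) and Ahcy, which splits S-adenosylhomocysteine into adenosine and homocysteine, up (0.71, SE 0.07, adjusted p = 9.34e-06). Dpp4, which encodes CD26, fell in activated Tconvs (-0.63, SE 0.14, adjusted p = 0.00117), in activated tTregs (-0.55, SE 0.14, adjusted p = 0.00831) and in restimulated iTregs (-0.52, SE 0.09, adjusted p = 0.00039). It was higher with CM-4620 (0.55, SE 0.09, adjusted p = 0.00104). In resting iTregs against resting Tconvs 7 were higher and 4 lower, a share near that of all genes (63.6% called, 32.8% higher and 30.8% lower), Ahcy being higher (2.23, SE 0.07, adjusted p = 1.35e-12) and Slc28a2 lower (-3.03, SE 0.13, adjusted p = 1.94e-11).

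Of 8 genes for channels and carriers that let ATP out of the cell, 7 were tested. On activation 1 rose and 4 fell in Tconvs, where 50.2% of all genes were called, and 1 rose and none fell in tTregs, where 21.9% were. For 5 of 7 the tTreg response was higher than the Tconv response and for 1 lower, where 17.7% of all genes were higher and 17% lower. The pannexin gene Panx1 rose in Tconvs (log2 fold change 0.95, SE 0.11, adjusted p = 3.96e-06). Gja1, which encodes connexin 43, had 1.03, 3.75 and 2.63 normalized counts in resting Tconvs, 336, 349 and 396 in resting iTregs and 1194, 1157 and 1139.8 after restimulation (1.69, SE 0.07, adjusted p = 2.6e-10). With CM-4620 it had 998, 1001 and 1049 and with CsA 969, 1009.9 and 948, still far above rest.

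Cyclic AMP is the messenger of the A2a receptor, and all 24 genes listed for it were tested. On activation of Tconvs 3 rose and 15 fell, where 24.5% of all genes tested rose and 25.7% fell, with a median log2 fold change of -0.68 against -0.040 over all genes, among them the phosphodiesterase genes Pde2a (log2 fold change -4.68, SE 1.06, adjusted p = 0.00135), Pde4b (-2.56, SE 0.12, adjusted p = 1.76e-10) and Pde3b (-2.15, SE 0.18, adjusted p = 7.6e-08) and the adenylyl cyclase gene Adcy7 (-2.20, SE 0.09, adjusted p = 6.16e-11). In tTregs 3 rose and 6 fell, where 11.9% of all genes rose and 10% fell. Pde3b was lower in resting tTregs than in resting Tconvs, with 52.6, 41.5 and 34.2 against 2855, 2664 and 2698 (-5.99, SE 0.18, adjusted p = 1.33e-12). Crem, a transcription factor gene induced by cyclic AMP, was higher in resting tTregs (2.66, SE 0.18, adjusted p = 1.62e-08) and fell when they were activated (-1.06, SE 0.18, adjusted p = 0.000597). It rose when iTregs were restimulated (1.48, SE 0.07, adjusted p = 1.74e-09) and was lower with CM-4620 (-0.80, SE 0.07, adjusted p = 6.73e-06) and with CsA (-0.77, SE 0.07, adjusted p = 1.43e-05) than with restimulation alone.

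The genes whose pattern was most like that of each member were found over the 24 libraries by Pearson's r of log2 values, which mainly reflects the 8 groups. They were Ptprj (r = 0.98), Osbpl3 (0.98) and Lamc1 (0.97) for Entpd1, Acsbg1 (0.97) and Psd4 (0.97) for Nt5e, and Cops3 (0.98), Cd82 (0.97) and Psma4 (0.97) for Ada. For Adora2a they were Slc23a2 (0.99), Smg1 (0.98) and Rhoh (0.98). For P2rx7 they were Itih5 (0.98), Foxp3 (0.98) and Pdia4 (0.97), for P2rx4 Leprotl1 (0.96), Cry2 (0.96) and Tpcn1 (0.95), and for P2ry10 Ncoa3 (0.97), Prkca (0.96) and Snap23 (0.96). The lineage-defining gene Foxp3 appears among those of P2rx7. Only the closest genes of each member were taken, so its absence from the other lists does not make this particular to P2rx7.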

How the data were processed

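RNA of sorted cells was amplified by a SMART-seq2 type protocol that keeps no strand. According to the methods and processing notes, the authors trimmed reads with cutadapt 1.18, aligned them to mm10 with STAR 2.5.3, counted genes with RSEM 1.3.0 and normalized with DESeq2 1.26. The deposited values are a signal, normalized counts: every value is a whole number of reads (within 0.01 of a read) divided by 1 factor per library. For each fit, the genes that reached 10 normalized counts in 3 or more of its libraries were tested by limma 3.58.1 (R 4.3.3) with a trend on log2(normalized count + 1), so a fold change understates that of low genes. One fit held the 15 libraries of Tconvs, tTregs and resting iTregs, another the 12 iTreg libraries, and p-values were adjusted over all genes by Benjamini-Hochberg. A gene was called at an adjusted p under 0.05 and an absolute log2 fold change over 0.5, the thresholds of the study. The script was tested on simulated data. edgeR 4.0.16 and DESeq2 1.42.0 on the recovered reads, other scalings, filters and pseudocounts, and libraries left out were alternatives. Beyond the 7 genes, list genes were named only if called, at most the 4 with the largest fold change per list and comparison, and the 3 genes most correlated with each member, apart from items that are not reported here. The members, the lists and the place of iTregs between Tconvs and tTregs were chosen with earlier results of these data known. Chromatin libraries of the series were not analysed here.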

Additional observations from a re-analysis of the deposited data

Results flagged for a closer look

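The response to activation differed between tTregs and Tconvs, by a test of the difference itself, for 6 of the 7 genes, where 34.7% of all genes tested did. The log2 fold change in tTregs minus that in Tconvs was 2.07 for Nt5e, 1.97 for P2rx4 and 0.92 for Adora2a. It was -1.96 for P2ry10, -1.50 for Ada and -1.47 for P2rx7. Each of these 6 passed with every library left out in turn. Groups of 3 libraries are too small for a test of single outlying samples, so none was made.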

How the results depend on the processing

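Of 98 values (7 genes in 14 comparisons), 50 were called, and over 1898 alternative values none was reversed, 58 lost the call and 24 gained it. Apart from changed thresholds, 42 of the 50 calls held in every alternative that gave a value. The counts of called members among Tconvs, tTregs and resting iTregs were within 1.5 times of the reported ones in all settings except that a log2 fold change above 1 gave 0 for activation of tTregs (reported 2) and 3 for resting iTregs against activated Tconvs (reported 5), and that leaving out a library gave 3 to 6 for the latter. The calls with inhibitors are the weak ones. For CM-4620 against restimulation (reported 1), the count was 0 with a pseudocount of 5, no filter, a filter of 100 normalized counts, DESeq2, only the groups compared or a log2 fold change above 1, it was 3 on adjusted p alone, and 0 to 1 with a library left out. For CsA against restimulation (reported 1) it was 3 on adjusted p alone, 0 at a log2 fold change above 1, and 0 to 1 with a library left out. For CM-4620 against rest (reported 1) it was 0 with the filter of 100, which removes Adora2a, and at a log2 fold change above 1. For CsA against rest (reported 2) it was 1 with newly computed scaling factors, a pseudocount of 5, the filter of 100, edgeR or DESeq2, 0 at a log2 fold change above 1, and 1 to 2 with a library left out. For CM-4620 against CsA (reported 1) it was 0 with newly computed scaling factors, quantile normalization, a pseudocount of 5, no filter, all 24 libraries in 1 fit, edgeR, DESeq2, only the groups compared or a log2 fold change above 1, and 0 to 1 with a library left out. For restimulation against rest (reported 0) adjusted p alone gave 2. Some of these calls were lost on the fold and others on the adjusted p: Adora2a with CM-4620 against restimulation was at -0.51 with adjusted p-values of 0.0757 without a filter, 0.112 with DESeq2 and 0.0869 with only the groups compared, and P2rx7 between the inhibitors was at 0.50 with 0.0785 in the fit of all 24 libraries. The cause was not tested. Replicate numbers are shared across groups, but in none of 28 pairs of groups did every same-numbered pair of libraries correlate above 0.1. By mean correlation, 15 of 24 libraries correlated best with their own number, and of these 15 only 1 was a tTreg library. Same-numbered resting and activated tTregs correlated at -0.395 to -0.109. Differently numbered ones correlated at -0.191 to 0.394, highest for resting library 3 with activated library 1, and the source of this was not tested. A block by number therefore cannot account for batches shared among tTreg libraries, if there were any. With the replicate number as a block, all 98 values kept their side of the thresholds, with 7 members called on activation of Tconvs and 2 on activation of tTregs as before, and genes called in all went from 1425 to 1500 for restimulation. No alternative varied depth. The members had at least 25 reads in every library, the lowest being Entpd1 in activated Tconvs, while genes near 0 in Tconvs, such as Adora2b, rest on few reads, and 3 reads came to 2.12 to 5.45 normalized counts.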
